A study of Mus musculus with 6 samples.

Results

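The slow fibre contractile genes are 9 genes that encode the slow isoforms of the sarcomere: the myosin heavy chains Myh7 and Myh7b, the myosin light chains Myl2 and Myl3, the troponin subunits Tnnt1, Tnni1 and Tnnc1, the tropomyosin Tpm3 and the Z-disc protein Myoz2. They were chosen by symbol, and all 9 were present among the 41709 genes of the expression table. The values come from RNA-seq of 6 tibialis anterior (TA) muscles of male C57BL/6J mice, a hindlimb muscle built almost wholly of fast myofibres. Lrpprc encodes a mitochondrial RNA-binding protein. In 3 control muscles a plasmid for Flag-tagged wild-type mouse Lrpprc (pCMV6-LrpprcWT-3xFlag) was electroporated, and in the other 3, the contralateral muscles, the plasmid encoded LrpprcP27A, in which proline 27 is replaced by alanine so that it cannot be hydroxylated. All muscles had thus received a plasmid, an injection and electric pulses, with expression driven by the CMV promoter, and were taken 14 days later. Whole muscle was sequenced, so transfected and untransfected fibres and all other cells were read together, and the age of the sequenced mice is not given in the sources used here. The question addressed here is how much of the slow contractile programme the muscles contained with each plasmid.

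A sarcomere shortens when myosin heads, each carrying an essential and a regulatory light chain, pull on actin filaments. Troponin C binds the calcium released into the fibre, troponin I then lets go of actin, and troponin T passes the shift on to tropomyosin, which uncovers the myosin binding sites. Most of these parts exist as a slow isoform, used by type 1 fibres and often by the heart, and as a fast isoform, used by type 2 fibres. In the TA of the mouse the slow isoforms can come from a few fibres or from fibres that hold a small amount beside the fast isoform. Isoforms of immature muscle and markers of other cells are counted below. Whether immature fibres or other cells were a source of the slow transcripts was not tested. In bulk muscle fewer slow fibres, less slow transcript per fibre and a change in another source cannot be told apart.

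Transcript levels are in TPM, which are scaled for transcript length and sum to the same total in each library, so they can be compared between genes but hold no sequencing depth, and no counting error can be given. Markers of fast TA muscle (Ckm, Acta1, Myh4, Mylpf, Tnnt3, Pvalb and Actn3) were all present and together held 106937 to 128744 TPM per library. Lrpprc itself was at 35.1, 37.0 and 75.2 TPM in the LrpprcWT muscles and at 26.9, 29.7 and 26.0 TPM in the LrpprcP27A muscles, so the groups did not overlap and LrpprcWT replicate 3 stood highest. This value holds endogenous and plasmid reads alike, and the adjusted p was 0.0652 (limma; 0.331 after the scaling described next; with the replicate block 0.0024, and 0.245 with both). The part of the Lrpprc level in the results below was not tested.

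The tests are limma fits on log2(TPM + 1) over the 11611 genes with a mean of at least 1 TPM, with Benjamini-Hochberg adjustment over all of them, and a gene is called at an adjusted p under 0.05. The table leans to one side: the median log2 fold change of all tested genes was -0.32, with 88.0% of genes lower with LrpprcP27A. For that reason the fold changes of the members and the counts of called genes are also given after median-of-ratios scaling, which sets the typical gene equal between libraries and brings that median to -0.0047. Calls of lower genes made up 23.3% of all tested genes as deposited and 6.03% after this scaling, and calls of higher genes 1.34% and 5.25%.

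The promoters of the members are shown for the 3 troponin subunits, which had the largest fold changes among the members, and for Myoz2, the one member promoter with a match to the MEF2 motif. RefSeq promoters (GRCm38.p6 table) were found for 9 of 9 members, 13 in all, because some genes have more than 1 start. The 250 bases before the start are given 5′ to 3′ on the coding strand, located in GRCm39 by an exact match, with motif matches in capitals. Between 19 and 37 of these bases lie in exons that GENCODE annotates.
Tnni1, troponin I, chr1:135726909-135727158, plus strand: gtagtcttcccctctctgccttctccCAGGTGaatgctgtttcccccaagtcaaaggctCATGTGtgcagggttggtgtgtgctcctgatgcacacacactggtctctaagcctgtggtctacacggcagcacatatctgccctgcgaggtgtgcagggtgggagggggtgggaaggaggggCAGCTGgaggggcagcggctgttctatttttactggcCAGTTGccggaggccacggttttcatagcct
Tnnt1, troponin T, chr7:4518975-4519224, minus strand: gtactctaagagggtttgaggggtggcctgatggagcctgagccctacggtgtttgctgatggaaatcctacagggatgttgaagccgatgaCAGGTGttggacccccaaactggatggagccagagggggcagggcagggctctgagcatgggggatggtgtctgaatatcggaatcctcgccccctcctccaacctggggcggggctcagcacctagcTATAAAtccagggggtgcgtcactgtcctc
Tnnc1, troponin C, chr14:30930019-30930268, plus strand: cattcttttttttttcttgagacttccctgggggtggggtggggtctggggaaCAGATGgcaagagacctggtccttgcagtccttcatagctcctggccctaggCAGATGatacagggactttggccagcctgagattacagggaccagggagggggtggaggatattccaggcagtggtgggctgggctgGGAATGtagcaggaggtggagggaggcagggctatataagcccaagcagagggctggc
Myoz2, calsarcin-1, chr3:122828637-122828886, minus strand: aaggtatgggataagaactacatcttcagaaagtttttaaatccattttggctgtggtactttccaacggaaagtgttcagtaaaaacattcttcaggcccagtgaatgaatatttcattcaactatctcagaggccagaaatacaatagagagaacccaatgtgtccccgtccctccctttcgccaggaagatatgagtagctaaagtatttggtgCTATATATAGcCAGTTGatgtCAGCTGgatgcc
The capitals mark E-boxes (CANNTG, the motif of the myogenic bHLH factors), the MCAT box (CATTCC, or GGAATG on the other strand, the motif of the TEAD factors), the MEF2 motif and the TATA box (TATAAA, coding strand only), and no marked matches overlap. In the whole promoters of the table, which also hold the 50 bases after the start, an E-box was found in 13 of 13 member promoters (9 of 9 genes), against 72.3% of all 32851 mouse promoters. The promoters of Myh7 overlap each other, as do those of Tnni1, so the 13 are not separate sequences. The MCAT box was found in 3 of 13 (Myh7, Myl3 and Tnnc1), against 14.7% of all promoters, and the MEF2 motif in 1 of 13 against 3.19%. Among 7 promoters of the fast isoform counterparts, 5 held an E-box, 4 the MCAT box and 2 the MEF2 motif. A CArG box, the motif of serum response factor, was found in Myl3 alone (1.63% of all promoters), and TATAAA in Tnnt1 alone (8.32%). These matches describe the letters and not the binding of a factor.

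The slow contractile transcripts were scarce in all muscles and scarcer with LrpprcP27A. The 9 members together held 226, 131 and 152 TPM in the LrpprcWT muscles and 61.1, 45.2 and 48.7 TPM in the LrpprcP27A muscles. Every LrpprcP27A value was below every LrpprcWT value, and the means (170 ± 49.9 and 51.7 ± 8.38 TPM, SD, n = 3) differed 3.29-fold (p = 0.1 in a two-sided exact permutation test, which cannot go lower with 3 against 3). After median-of-ratios scaling the sums differed 2.51-fold (147 ± 33.3 against 58.5 ± 8.42). Of the 8 members that passed the expression filter, 6 fell (Tnni1, Tnnt1, Tnnc1, Myl3, Myoz2 and Tpm3) and 0 rose, beside the 23.3% and 1.34% of all tested genes. After the scaling 4 of 8 were called lower, beside 6.03% of all genes, namely the troponin subunits and Tpm3. The median log2 fold change of the 8 was -1.33, against -0.32 over all genes, and -1.02 after the scaling. In 6 of 8 members every LrpprcP27A muscle was below every LrpprcWT muscle, which was so in 47.6% of all tested genes.

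**Figure D1:**
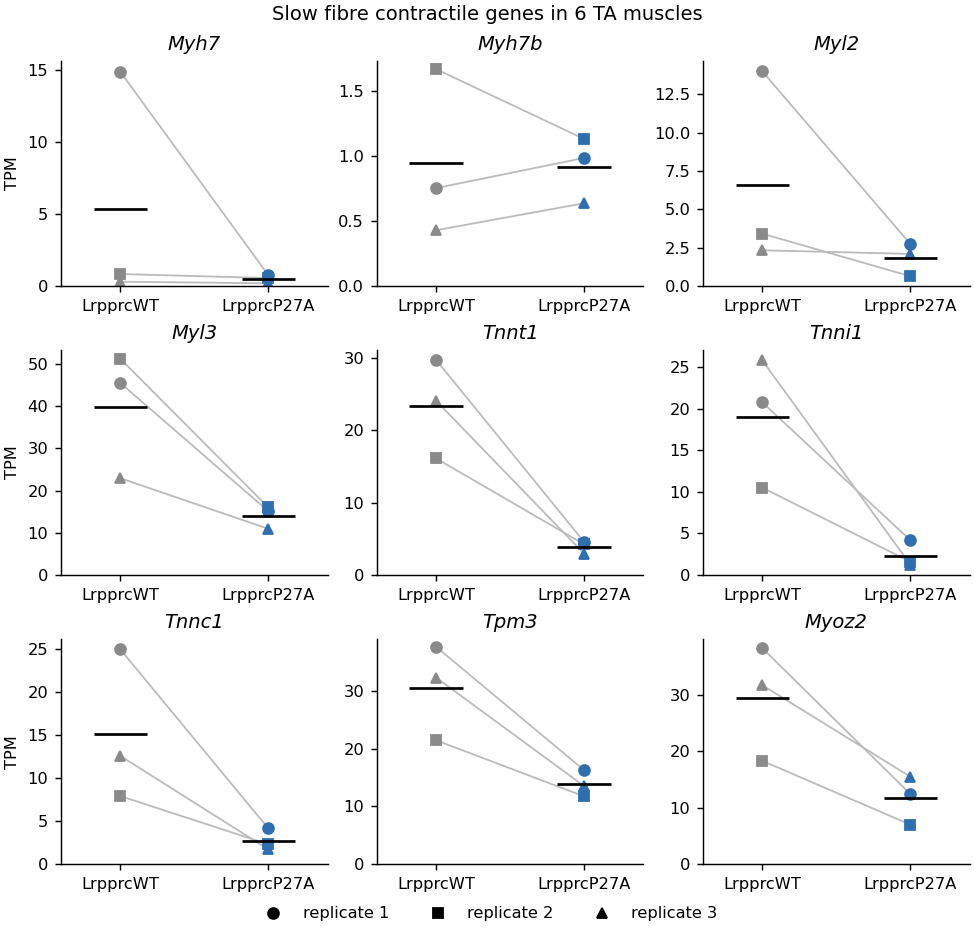
Level of each slow fibre contractile gene in TPM (vertical axes, each from 0) in the 3 LrpprcWT (grey) and 3 LrpprcP27A (blue) muscles. Circles, squares and triangles are replicates 1, 2 and 3, lines join muscles of the same replicate number and bars are group means. For Myl3, Tnnt1, Tnni1, Tnnc1, Tpm3 and Myoz2 the groups do not overlap, while the Myh7 mean of the LrpprcWT group is set by replicate 1.

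On the log2(TPM + 1) scale the thin filament subunits of the troponin complex had the largest fold changes. The ratio of the group means was larger for Myh7 (10.9, set by LrpprcWT replicate 1) than for Tnni1 (8.13). Adding 1 TPM shrinks the fold changes of genes near that level. With 0.1 TPM added instead, Tnni1, Tnnt1 and Tnnc1 were at -3.07, -2.52 and -2.37 and Myh7 at -1.72. Tnni1, the inhibitory subunit that holds the thin filament off (chr1:135707172-135738727, plus strand, 10 exons in the canonical transcript, GRCm39), was at 20.8, 10.5 and 25.8 TPM in the LrpprcWT muscles and at 4.18, 1.59 and 1.26 TPM in the LrpprcP27A muscles. The groups lay far apart, with the lowest control muscle above the highest LrpprcP27A muscle, and LrpprcP27A replicate 1 stood above the other two of its group. Tnni1 fell by 2.60 on the log2 scale (SE 0.372; adjusted p = 0.0116, limma; -2.29 and 0.0244 after scaling), the 16th most negative fold change of the 11611 genes.

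Tnnt1, which anchors the complex to tropomyosin (chr7:4507567-4519381, minus strand, 14 exons), was at 29.7, 16.1 and 24.0 TPM in the controls and at 4.56, 4.23 and 2.93 TPM with LrpprcP27A. The LrpprcP27A muscles were close to each other and none reached the lowest control. Tnnt1 fell by 2.28 (SE 0.227; adjusted p = 0.0045, limma; -1.95 and 0.0097 after scaling), the smallest p of the members. Tnnc1, the calcium sensor that slow muscle shares with the heart (chr14:30930232-30933708, plus strand, 6 exons), was at 25.0, 7.91 and 12.6 TPM and at 4.15, 2.30 and 1.71 TPM, respectively. Replicate 1 was highest in both groups, and the groups did not overlap. Its fold change was -2.03 (SE 0.375; adjusted p = 0.0166, limma; -1.72 and 0.0339 after scaling).

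Each troponin subunit lost its call when LrpprcWT replicate 3 was left out. In that fit 1 member was called, but 7 had an unadjusted p under 0.05 (limma), against 6 with all libraries. Cardiac and developmental isoforms also lost all calls there (0 called, 5 unadjusted), so the loss was not particular to the troponins. Without that library the fold changes were almost the same (-2.35 for Tnni1, -2.24 for Tnnt1, -2.08 for Tnnc1), but the adjusted p-values were 0.0840, 0.0613 and 0.0948 (limma). On the deposited scale all 3 were called with each of the other 5 libraries left out. After median-of-ratios scaling, Tnnt1 was called in 5 of the 6 fits that left out a library, but Tnni1 and Tnnc1 in 2 of 6 each. These were lost without LrpprcWT replicate 1 (adjusted p = 0.0921 and 0.0923), LrpprcWT replicate 3 (0.0941 and 0.106), LrpprcP27A replicate 2 (0.0973 and 0.121) or LrpprcP27A replicate 3 (0.0981 and 0.118).

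Tpm3, the slow alpha-tropomyosin that lies along the thin filament (chr3:89979949-90008226, plus strand, 8 exons), was at 37.6, 21.4 and 32.3 TPM in the LrpprcWT muscles and at 16.3, 11.7 and 13.5 TPM in the LrpprcP27A muscles. It was one of the most abundant members with either plasmid, and the groups did not overlap. Tpm3 fell by 1.06 (SE 0.208; adjusted p = 0.0178, limma; -0.70 and 0.0343 after scaling), the smallest fold change of the members tested. It was not called without LrpprcWT replicate 1 (adjusted p = 0.0548, limma) or LrpprcWT replicate 3 (0.101). The gene also encodes cytoskeletal tropomyosins of other cells, which a gene-level value does not separate. Of the 100-base windows of its canonical transcript, 38.5% recur in the related locus Tpm3-rs7, which held at most 0.267 TPM in any library.

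The myosin heavy chains gave no difference beyond the spread. Myh7, the slow and cardiac beta heavy chain (chr14:55208141-55232084, minus strand, 41 exons), was at 14.9, 0.823 and 0.291 TPM in the LrpprcWT muscles and at 0.746, 0.544 and 0.177 TPM in the LrpprcP27A muscles. LrpprcWT replicate 1 was 51.0 times higher than replicate 3 of its own group, and the other 2 control muscles lay within or near the LrpprcP27A range. The fold change was -1.19 (95% interval -2.97 to 0.60; adjusted p = 0.243, limma; -1.02 and 0.402 after scaling) and, without LrpprcWT replicate 1, -0.06 (adjusted p = 0.852). With replicate numbers as a block, which compares the muscles of 1 pair, the adjusted p was 0.0107 (limma), but 0.213 when the block was combined with median-of-ratios scaling. Of the 100-base windows of the Myh7 transcript 23.3% recur in other genes, mainly Mhrt, the antisense transcript of the locus, and Myh6, the cardiac alpha chain. Mhrt was listed at 0 in every library, and Myh6 was at 0.35 to 2.07 TPM.

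Myh7b, a myosin of slow-tonic and cardiac muscle (chr2:155453096-155476234, plus strand, 42 exons), had a mean under 1 TPM and did not enter the fit. It was at 0.752, 1.67 and 0.428 TPM in the controls and at 0.984, 1.13 and 0.636 TPM with LrpprcP27A. The groups overlapped fully and only 1 of 3 pairs was lower (mean 0.949 ± 0.643 against 0.917 ± 0.253 TPM, SD, n = 3; exact permutation test, two-sided, p = 1.0). Among the members it was the only one whose mean on the log2 scale was not lower with LrpprcP27A (difference 0.017).

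The light chains differed from each other. Myl3, the essential light chain of slow and ventricular myosin (chr9:110570929-110599396, plus strand, 7 exons), was at 45.5, 51.3 and 23.0 TPM in the LrpprcWT muscles and at 15.1, 16.0 and 10.9 TPM in the LrpprcP27A muscles. It had the highest mean of all members in both groups, and replicate 3 was lowest in each. Myl3 fell by 1.38 (SE 0.280; adjusted p = 0.0191, limma), but it was not called after median-of-ratios scaling (-1.03, adjusted p = 0.0959), nor without LrpprcWT replicate 1 (adjusted p = 0.0613) or LrpprcP27A replicate 3 (0.0519). With the block and the scaling together the adjusted p was 0.0122 (limma).

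Myl2, the regulatory light chain of the same myosins (chr5:122238848-122251545, plus strand, 7 exons), was at 13.996, 3.41 and 2.32 TPM and at 2.73, 0.627 and 2.09 TPM, respectively. As for Myh7, LrpprcWT replicate 1 stood apart, and the groups overlapped. The fold change of -1.18 (95% interval -2.38 to 0.02) was not called (adjusted p = 0.110, limma; -0.92 and 0.274 after scaling), and it was -0.53 without that library. The replicate block gave an adjusted p of 0.0004 on the deposited scale, and 0.101 with median-of-ratios scaling.

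Myoz2 (calsarcin-1), which links calcineurin to alpha-actinin at the Z-disc of slow and cardiac muscle (chr3:122797610-122828664, minus strand, 6 exons), was at 38.3, 18.3 and 31.7 TPM in the LrpprcWT muscles and at 12.4, 7 and 15.5 TPM in the LrpprcP27A muscles. The gap between the groups was narrow, as the lowest control (18.3) stood just above the highest LrpprcP27A muscle (15.5). Myoz2 fell by 1.27 (SE 0.313; adjusted p = 0.0282, limma), but was not called after median-of-ratios scaling (-0.92, adjusted p = 0.0679) nor without LrpprcWT replicate 1, LrpprcWT replicate 3 or LrpprcP27A replicate 2 (0.0892, 0.128 and 0.0685). With block and scaling together the adjusted p was 0.0098 (limma).

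Counted over the paired fits, the replicate block called 8 of 8 members lower, beside 48.4% of all tested genes. With the block and median-of-ratios scaling together it called 6 of 8, the same members as the unpaired fit on the deposited scale, beside 15.8% of all genes. All 8 were lower in 3 of 3 pairs, but the share of all genes with this pattern was not counted. Myh7 passed the expression filter only through LrpprcWT replicate 1 (14.9 TPM, against 0.177 to 0.823 TPM in the other libraries). Myh7b, which did not pass it, was lower in 1 of 3 pairs.

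**Figure D2:**
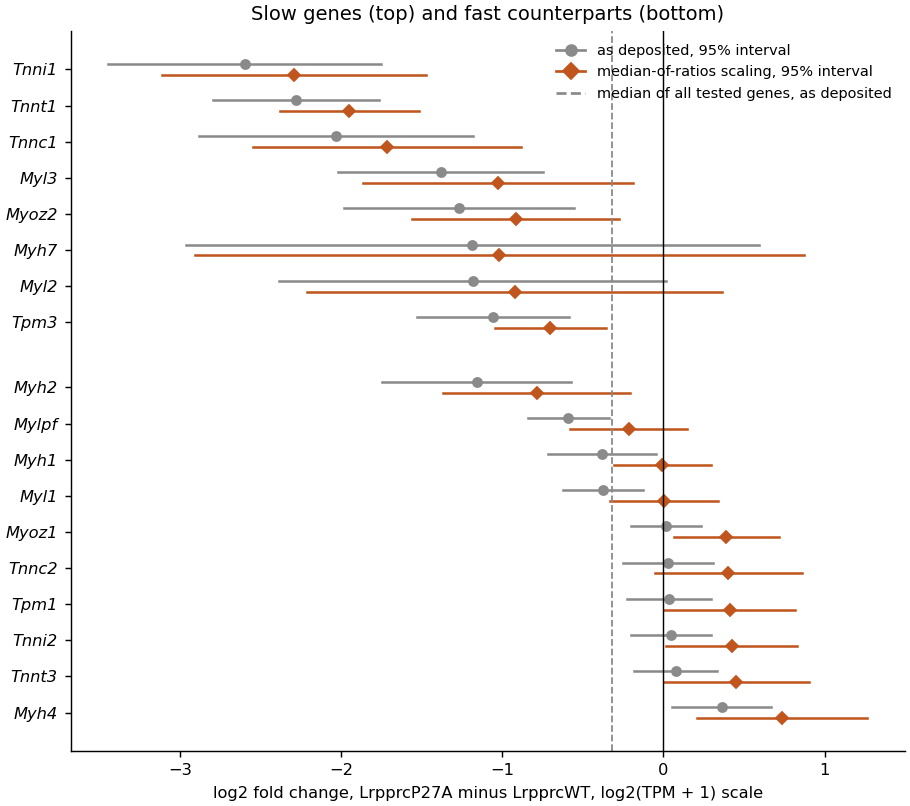
Log2 fold change (LrpprcP27A minus LrpprcWT, log2(TPM + 1) scale, horizontal axis) with its 95% interval from limma for the 8 tested slow genes (top) and their 10 fast counterparts (bottom), as deposited (grey circles) and after median-of-ratios scaling (orange diamonds); the dashed line is the median of all tested genes as deposited, -0.32. The 8 slow genes lie left of that line on both scales, with wide intervals for Myh7 and Myl2, while 6 of the 10 fast genes lie right of 0 as deposited.

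The order of the levels was similar with either plasmid. In the LrpprcWT muscles it ran Myl3, Tpm3, Myoz2, Tnnt1, Tnni1, Tnnc1, Myl2, Myh7 and Myh7b, from 39.9 ± 14.97 to 0.949 ± 0.643 TPM, and no neighbours in that order differed by more than the larger of their SDs. With LrpprcP27A it ran Myl3, Tpm3, Myoz2, Tnnt1, Tnnc1, Tnni1, Myl2, Myh7b and Myh7, from 14.04 ± 2.71 to 0.489 ± 0.288 TPM. Here 2 steps were wider than the SD, that from Myoz2 to Tnnt1 (7.73 TPM, larger SD 4.30) and that from Myh7b to Myh7 (0.427 TPM, larger SD 0.288). A library did not move all members alike: LrpprcWT replicate 1 was the highest control for 6 members, replicate 2 for Myl3 and Myh7b, and replicate 3 for Tnni1.

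A share within a library does not depend on how libraries are scaled, so each slow isoform was set against its fast counterpart, as a percent of their sum. The slow share of troponin T (Tnnt1 of Tnnt1 plus Tnnt3) was 0.189%, 0.0872% and 0.135% in the LrpprcWT muscles and 0.0271%, 0.0218% and 0.0159% in the LrpprcP27A muscles. That of troponin I (Tnni1 against Tnni2) was 0.304%, 0.134% and 0.326%, and 0.0580%, 0.0192% and 0.0161%. The slow share of troponin C (Tnnc1 against Tnnc2) was 0.199%, 0.0519% and 0.0819%, and 0.0312%, 0.0146% and 0.0115%. The slow isoforms thus made up under 1% of the troponin transcripts in every muscle, and the groups did not overlap for any subunit, with mean shares 6.35, 8.19 and 5.79 times higher in the controls.

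For tropomyosin, the essential light chain and calsarcin the ratio was smaller. The mean share was 0.714 ± 0.256% against 0.315 ± 0.0701% for tropomyosin (Tpm3 against Tpm1), 0.323 ± 0.138% against 0.145 ± 0.0277% for the essential light chain (Myl3 against Myl1) and 1.89 ± 0.650% against 0.761 ± 0.318% for calsarcin (Myoz2 against Myoz1), all SD, n = 3, and again without overlap. The slow share of the myosin heavy chains (Myh7 against Myh1, Myh2 and Myh4) and of the regulatory light chain (Myl2 against Mylpf) overlapped between the groups, with ratios of the means of 11.7, set by LrpprcWT replicate 1, and 2.39. In these pairs the exact permutation p was 0.4 and 0.5, and in the 6 others it was 0.1, the smallest possible (two-sided; 0.133 after adjustment over the 8 pairs). Over all 8 pairs summed, slow isoforms held 0.242%, 0.131% and 0.148% in the LrpprcWT muscles and 0.0704%, 0.0451% and 0.0526% in the LrpprcP27A muscles, a ratio of 3.10 (exact permutation p = 0.1; sign-flip test over the pairs 0.25, the smallest it allows).

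**Figure D3:**
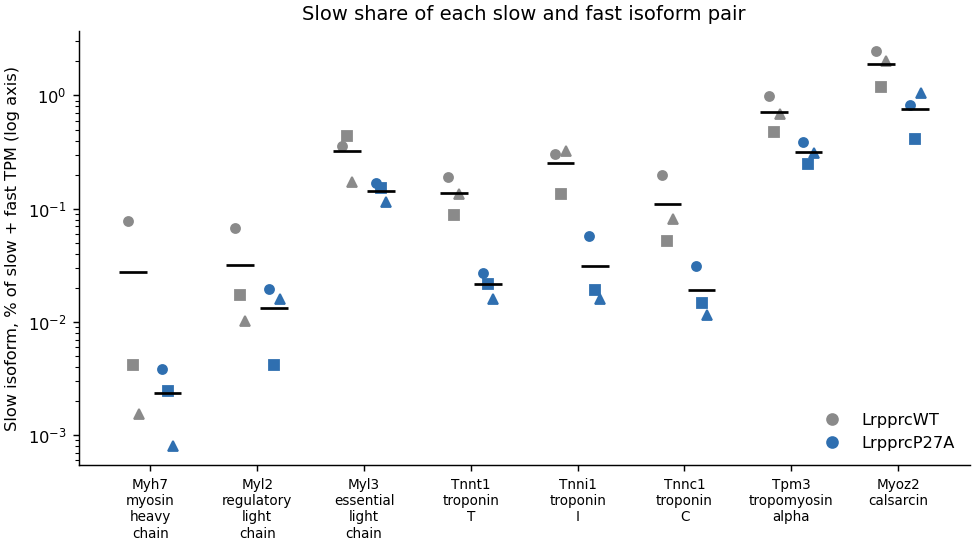
Slow isoform as a percent of slow plus fast isoform TPM (log axis) for the 8 isoform pairs in the LrpprcWT (grey) and LrpprcP27A (blue) muscles. Circles, squares and triangles are replicates 1, 2 and 3, and bars are group means. The groups are separate for the essential light chain, the 3 troponins, tropomyosin and calsarcin, and overlap for the heavy chain and the regulatory light chain.

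The fast counterparts did not move as one. Of 10 tested, 3 fell (Myh2, Mylpf and Myl1) and 0 rose, a share of lower genes near the 23.3% of all genes, and after median-of-ratios scaling 0 were called in either direction. Their median log2 fold change was 0.02, and 0.40 after scaling. The fast troponins Tnnt3, Tnni2 and Tnnc2, with Tpm1 and Myoz1, had adjusted p-values of 0.586 to 0.903 (limma), on the deposited scale. With block and scaling together 4 fast counterparts were called higher (Myh4, Tnni2, Tpm1 and Myoz1), but the share of all genes called higher in that fit was not counted. Tnnt3 was at 17300 ± 1449 TPM in the LrpprcWT and 18242 ± 1330 TPM in the LrpprcP27A muscles. Myh2, the heavy chain of type 2A fibres, the most oxidative of the fast fibres, was at 377, 262 and 313 TPM in the controls and at 131, 98.1 and 213 TPM with LrpprcP27A. It fell by 1.16 (SE 0.257; adjusted p = 0.0236, limma; -0.79 and 0.0768 after scaling; 0.0493 with block and scaling together). As a share of the adult heavy chains Myh7, Myh2, Myh1 and Myh4, Myh2 made up 1.65 ± 0.317% and 0.698 ± 0.268% (exact permutation p = 0.1, no overlap). Myh1, of type 2X fibres, held 33.2 ± 6.71% and 23.1 ± 3.76%, and Myh4, of type 2B fibres, 65.1 ± 7.05% and 76.2 ± 3.82%, and both overlapped (exact permutation p = 0.2 each). On the deposited scale neither level was called (adjusted p = 0.0804 and 0.0751, limma). The replicate block called Myh1 lower (0.0150) and Myh4 higher (0.0203). With block and scaling together the adjusted p-values were 0.968 and 0.0183.

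Other genes typical of slow fibres were counted next: 6 of 14 fell and 0 rose, beside 23.3% of all genes, and 5 fell after scaling, beside 6.03%. The replicate block called 11 lower, beside 48.4%, and 7 with the scaling, beside 15.8%. Sln, sarcolipin, which restrains the calcium pump of the sarcoplasmic reticulum, was at 81.0, 54.1 and 108 TPM in the controls and at 8.65, 1.70 and 1.62 TPM with LrpprcP27A, and fell by 4.27 (adjusted p = 0.0063, limma). Casq2, the slow and cardiac calsequestrin that stores calcium, fell from 89.5 ± 23.0 to 23.6 ± 1.86 TPM (log2 -1.85, adjusted p = 0.0050, limma). Atp2a2, the slow calcium pump SERCA2, fell from 43.6 ± 16.0 to 14.7 ± 3.17 TPM, and Myom3, a protein of the M-band, from 28.2 ± 7.81 to 5.10 ± 2.77 TPM (adjusted p = 0.0168 and 0.0111, limma). After scaling these 4 genes were at -3.95, -1.48, -1.09 and -1.97 (adjusted p = 0.0198, 0.0067, 0.0329 and 0.0228). The most abundant of these genes, Mybpc1 (slow myosin-binding protein C), was at 1304 ± 166 and 1039 ± 24.5 TPM (adjusted p = 0.0668, limma, and 0.0367 with the replicate block, but 0.652 with block and scaling), Hspb6, a small heat shock protein, at 1069 ± 193 and 996 ± 26.5 TPM (0.600), and Pln, the other inhibitor of the pump, at 1.11 ± 0.289 and 1.21 ± 0.129 TPM.

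Isoforms of the same families that belong to the heart or to immature muscle had the most negative median fold change of the lists examined. Of 9 listed, 5 passed the expression filter and all 5 fell, before and after scaling, beside 23.3% and 6.03% of all genes (median log2 fold change -2.62 and -2.32). Myh3, the embryonic heavy chain, was at 29.8, 6.69 and 19.3 TPM in the controls and at 4.61, 0.858 and 1.01 TPM with LrpprcP27A. Myh8, the perinatal heavy chain, was at 39.5, 12.6 and 26.8 TPM, and at 4.72, 1.55 and 1.52 TPM. Myl4 and Tnnt2, light chain and troponin T of embryonic and atrial or cardiac muscle, and Actc1, the cardiac actin, were lower too (log2 -2.67, -1.62 and -1.79; adjusted p = 0.0144, 0.0116 and 0.0144, limma). Tnnt2 passed the filter through the LrpprcWT muscles, with a mean of 4.72 TPM there and 0.865 TPM with LrpprcP27A. Myl7, the atrial regulatory light chain, was listed at 0 in every library.

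**Figure D4:**
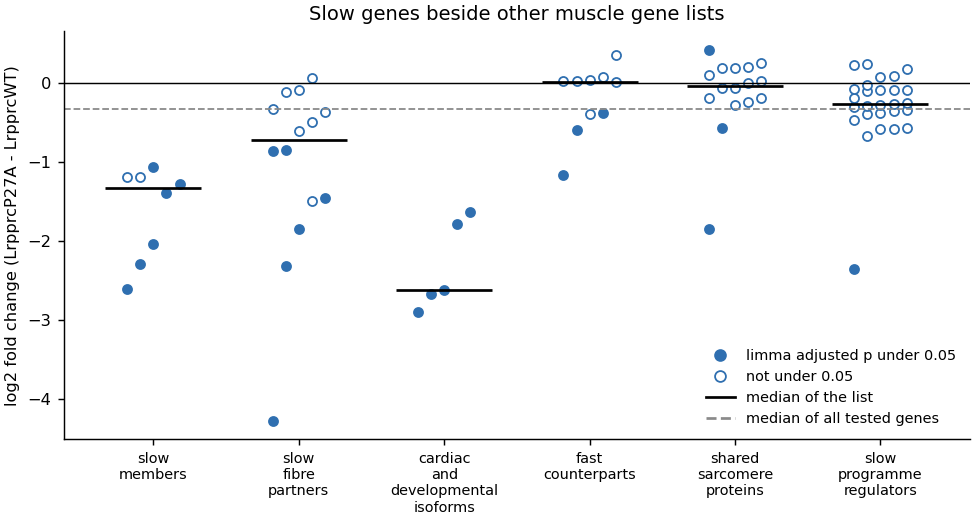
Log2 fold change (LrpprcP27A minus LrpprcWT, vertical axis) of every tested gene in 6 lists of muscle genes, as deposited. Filled points have a limma adjusted p under 0.05, bars are list medians and the dashed line is the median of all tested genes. Marker lists of other cell types are not drawn. The slow members (median -1.33) lie between the slow fibre partners (-0.72) and the cardiac and developmental isoforms (-2.62), and the fast counterparts (0.02) and shared sarcomere proteins (-0.03) lie near 0; after median-of-ratios scaling those last 2 medians are 0.40 and 0.35.

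Sarcomere proteins of fast or of all fibres gave 2 genes that fell and 1 that rose among 16 tested, beside 23.3% and 1.34% of all genes. Lmod2 and Lmod3, leiomodins that build actin filaments, fell by 1.85 and 0.56 (adjusted p = 0.0242 and 0.0300, limma), and Actn3, the alpha-actinin of fast fibres, rose by 0.42 (adjusted p = 0.0427). After scaling 1 was called lower and 4 higher, beside 6.03% and 5.25%. Lmod2 (-1.48, adjusted p = 0.0499) and Actn3 (0.80, 0.0499) kept their calls, and Lmod3 (-0.19, 0.216) did not. Acta1, the skeletal actin, had means of 41312 and 36285 TPM, and Tpm2, the beta-tropomyosin of slow and fast fibres, of 6784 and 5766 TPM (adjusted p = 0.197 and 0.104, limma).

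Of the regulators of the slow programme 1 of 27 tested fell and 0 rose on the deposited scale, beside 23.3% and 1.34% of all genes, and after scaling 1 was called lower and 3 higher, beside 6.03% and 5.25%. The replicate block called 10 lower on the deposited scale, beside 48.4% of all genes. With the scaling it called 1 lower, beside 15.8%, and 8 higher. The share of all genes called higher in that fit was not counted, so the 8 have no baseline. The gene that fell was Myog, myogenin, a bHLH factor of muscle differentiation that binds E-boxes. It was at 34.4, 22.0 and 53.1 TPM in the LrpprcWT muscles and at 9.20, 3.51 and 6.16 TPM in the LrpprcP27A muscles (log2 -2.35, SE 0.350, adjusted p = 0.0116, limma; -2.01 and 0.0259 after scaling). Ppargc1a, the coactivator PGC-1α, which drives mitochondrial and slow genes, was at 20.7 ± 15.4 and 11.7 ± 4.23 TPM (adjusted p = 0.324, limma). With the replicate block its adjusted p was 0.0160 on the deposited scale and 0.462 with median-of-ratios scaling. The most abundant regulators, Tbx15, Camk2a, Mef2d and Vgll2, were not called on the deposited scale (adjusted p = 0.564, 0.116, 0.145 and 0.136, limma). Camk2a was called higher after scaling (0.60, adjusted p = 0.0472), Tbx15 was called higher with block and scaling together (0.0174), and Vgll2 was called lower with the block on the deposited scale (0.0359) but not with both (0.767).

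Markers of other cells also moved with the groups, to be read beside the 23.3% of all genes called lower. Of the fibroblast markers 6 of 7 fell, with a summed level of 873 to 1463 TPM in the LrpprcWT and 240 to 512 TPM in the LrpprcP27A muscles, and of the macrophage markers 6 of 6 tested, with sums of 78.9 to 175 and 28.5 to 62.2 TPM. Satellite cell markers fell in 3 of 4 tested (sums 8.996 to 13.9 and 4.56 to 6.37 TPM), endothelial markers in 2 of 6, tendon markers in 2 of 5, adipocyte markers in 1 of 3, and smooth muscle and Schwann cell markers in 0 of 7 and 0 of 4. The endothelial, tendon and adipocyte counts were near the share over all genes. The median log2 fold change was -1.39 for the fibroblast and -1.09 for the macrophage markers (-1.02 and -0.78 after scaling). For the slow members it was -1.33 (-1.02 after scaling), so a fall of this size was not particular to them. The medians of the other marker lists ran from -1.05 (tendon) to 0.06 (adipocyte) as deposited. After median-of-ratios scaling, beside 6.03% of all genes, 4 of 7 fibroblast, 2 of 6 macrophage and 2 of 4 satellite cell markers were called lower and 0 of the endothelial, tendon and adipocyte markers. On the deposited scale the replicate block called 7 of 7 fibroblast, 6 of 6 macrophage, 4 of 4 satellite cell and 5 of 6 endothelial markers lower. It also called 3 of 5 tendon, 3 of 7 smooth muscle, 1 of 3 adipocyte and 0 of 4 Schwann cell markers, all beside 48.4% of all genes. With block and scaling together 5 fibroblast, 6 macrophage, 4 satellite cell and 3 endothelial markers were called lower, beside 15.8%. In that fit 0 were lower in the other lists and 1 endothelial marker was higher. None of these lists had a marker at 0 in every library. Their part in the level of the slow contractile genes was not tested.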

How the data were processed

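The TPM per gene that the authors deposited come from paired reads, filtered for quality and length and mapped with CLC Genomics Workbench to the GRCm39 genome. Library preparation did not mark the strand. Values were taken to log2 after adding a pseudocount of 1, genes averaging under 1 TPM were dropped (11611 stayed), and both groups of 3 entered a linear model in limma (version 3.58.1, R version 4.3.3; empirical Bayes with trend, Benjamini-Hochberg adjustment over all tested genes). Shares and sums were compared by two-sided exact permutation of the 6 libraries in Python 3.11.15 (scipy 1.17.1).

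Muscles are contralateral and share library numbers across the groups; deviations from the group means correlated at 0.36, 0.53 and 0.36 in same-numbered muscles and at -0.36 to 0.0040 in all others, so the numbers were taken as pairs. For named genes whose call the replicate block changed, its adjusted p is printed beside the result (0.0107 for Myh7).

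The members and the lists were chosen with earlier results of these data known. All 9 members are named, with, of every other list, the 2 to 4 most abundant genes and up to 4 called genes by size. A few others (Pln, Myl7, Ppargc1a) were named for their roles after their values were seen. On simulated data for 11611 genes, 194 of 200 genes changed by a log2 fold change of 2 were called, with 15 unchanged genes. The changed genes were drawn above a level that Myh7, Myl2, Tnni1 and Tnnc1 do not reach. The simulated libraries had no pairs and no lean of all genes to one side. This recovery therefore does not carry over to those members or to smaller fold changes. Alternatives were another pseudocount (0.1), other filters, limma without trend, the Kruskal-Wallis test of the study, the block, 3 other scalings and each library left out. Depth is unknown. Positions are from GENCODE.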

Additional observations from a re-analysis of the deposited data

How the results depend on the processing

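For the slow members, 6 were called lower as deposited, beside 23.3% of all tested genes. Without the filter on low values 1 was called and with the Kruskal-Wallis test, whose smallest p is 0.0495 with 3 against 3, 0 were called (6 at an unadjusted p under 0.05 in each). In the Kruskal-Wallis test that p needs groups without overlap, which 47.6% of all tested genes had in this direction. With the replicate block 8 were called, beside 48.4% of all tested genes. With 3 other scalings 4 each were called, beside 6.03% for median-of-ratios scaling. Leaving out 1 library or 1 pair, in part with median-of-ratios scaling (added after the data were seen), gave 0 to 7. On the deposited scale 1 was called without LrpprcWT replicate 3 and 3 without LrpprcWT replicate 1 (7 and 6 at an unadjusted p under 0.05, limma). The share of all genes called was not counted without the filter, after nuclear rescaling or quantile normalization, or with a library or pair left out. No alternative called a member higher. Every fold change of the 8 members stayed negative except that of Myh7, which was 0.023 without LrpprcWT replicate 1 under median-of-ratios scaling. Tnnt1, Tnni1, Tnnc1 and Tpm3 were called in 3 of 3 other scalings and Myl3, Myoz2, Myh7 and Myl2 in 0 of 3. The difference in the slow share was negative for all 8 pairs under each alternative run, though only -0.00048 percentage points for the myosin heavy chain without LrpprcWT replicate 1.

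Without the filter 0 fast counterparts, 1 slow fibre partner, 0 regulators, 0 shared sarcomere proteins and 0 cardiac and developmental isoforms were called lower, and 0 sarcomere proteins higher (2, 8, 5, 3, 5 and 1 at an unadjusted p under 0.05). Kruskal-Wallis called 0 in each (3, 7, 6, 6, 5 and 1 unadjusted). The replicate block called 11 partners and 10 regulators lower and 1 fast counterpart higher. With the block and median-of-ratios scaling 1 fast counterpart and 1 sarcomere protein were lower and 4 fast counterparts, 8 regulators and 9 sarcomere proteins higher. The share of all genes called higher in the fits with the block was not counted. Nor was any share counted without the filter, without trend, after nuclear rescaling or quantile normalization, or with a library left out, so those counts have no baseline. Median-of-ratios scaling alone gave 0 fast counterparts and 1 sarcomere protein lower, and 3 regulators and 4 sarcomere proteins higher. Rescaling over nuclear genes gave 1 fast counterpart and 0 sarcomere proteins lower. Quantile normalization gave 0 sarcomere proteins lower, and 2 regulators and 2 sarcomere proteins higher. Limma without trend called 0 sarcomere proteins higher. With each library left out, counts of lower genes ranged from 0 to 4 for fast counterparts, 0 to 10 for partners, 0 to 12 for regulators, 0 to 3 for sarcomere proteins and 0 to 5 for cardiac and developmental isoforms, and counts of higher genes from 0 to 1 for fast counterparts, regulators and sarcomere proteins. The causes were not tested. TPM hold no depth, so counting error at the low levels of Myh7, Myh7b and Myl2 is unknown.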

Other observations

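The genes whose levels followed the slow members most closely over the 6 libraries were Selp, Agtr2, Cog3, Rian and Meg3, with Pearson r of 0.998, 0.998, 0.998, 0.997 and 0.996 against the mean standardized profile of the 8 tested members. Selp encodes the adhesion molecule P-selectin, Agtr2 a receptor of angiotensin II and Cog3 a subunit of a Golgi complex, and Rian and Meg3 are maternally expressed long noncoding RNAs of one imprinted locus. Meg3 was at 53.1, 16.6 and 21.3 TPM in the LrpprcWT muscles and at 6.69, 2.44 and 3.87 TPM in the LrpprcP27A muscles, and Rian at 25.2, 7.69 and 9.30 TPM and at 2.02, 1.07 and 1.42 TPM. The 6 points share their group and their library, and 837 of 11603 other tested genes had an r of at least 0.95, so a likeness of this size was common.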
